A study of Mus musculus with 8 samples.

Results

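Mitochondrial ribosomal protein genes were read from every non-control probe whose gene name on the array was Mrpl or Mrps followed by a number, with or without a letter. The rule found 106 of the 39429 probes, on 133 of the 43020 non-control spots. They stood for 76 of the 30199 gene names on the array, 47 named Mrpl and 29 named Mrps, spread over 17 chromosomes. Of the 106 probes, 104 were well above background in at least 4 mice and were tested among 23236 probes. The others were a second Mrpl21 probe, above background in 1 mouse, and a second Mrpl9 probe, above it in 0 mice.

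The samples were left ventricles (septum, free wall and apex) of male C57Bl/6j mice, an inbred strain, aged 16 weeks. For the last 8 weeks 4 mice had eaten normal chow with 0.4% sodium and 4 a low salt diet with 0.05% sodium. RNA was labelled with the dye Cy3 or Cy5 and hybridised to 4 Agilent 2-colour arrays on 1 slide. Each array held 2 mice of the same diet, 1 in each dye: mice 1 and 2 of a diet shared an array, as did mice 3 and 4. Diet therefore differed only between arrays, and cannot be told apart from their position on the slide.

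Mitochondria keep their own ribosome, which translates the few messenger RNAs of the mitochondrial genome into core subunits of the respiratory chain and of ATP synthase. Its RNAs come from that genome, but its proteins are encoded in the nucleus, made in the cytosol and imported. The large subunit joins amino acids and holds the exit tunnel, and the small subunit reads the messenger RNA. Many of the proteins descend from bacterial ribosomal proteins, while others occur only in mitochondria. Heart muscle depends on respiration, and inherited defects of MRPL3, MRPL44 and MRPS22 are known to cause cardiomyopathy.

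The probes on which the results turn are 60 bases long and are shown 5′ to 3′ on the coding strand, as the array files give them. The first 5 had the largest differences between diets, the sixth was printed at 10 places on each array, and the last belongs to the neighbour of Mrpl46.
Mrpl15: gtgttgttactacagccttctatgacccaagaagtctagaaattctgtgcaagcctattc
Mrpl46: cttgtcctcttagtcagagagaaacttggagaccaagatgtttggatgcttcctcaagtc
Mrps30: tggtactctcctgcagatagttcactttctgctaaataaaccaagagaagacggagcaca
Mrpl32: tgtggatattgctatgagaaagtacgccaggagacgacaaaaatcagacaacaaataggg
Mrpl1: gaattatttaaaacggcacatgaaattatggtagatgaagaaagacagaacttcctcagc
Mrps35: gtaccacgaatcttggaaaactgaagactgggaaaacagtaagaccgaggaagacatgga
Mrps11: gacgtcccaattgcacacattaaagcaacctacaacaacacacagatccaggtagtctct

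In mm9, the build of the array design, the Mrpl46 probe lies at chr7:85925385-85925444 on the minus strand. The Mrps30 and Mrpl32 probes lie on the minus strand at chr13:119169203-119169262 and chr13:14702894-14702953, and the Mrpl1 probe on the plus strand at chr5:96667890-96667949. The probes of Mrpl15 (chr1:4766862-4767644, minus strand), Mrps35 (chr6:147009999-147019119, plus strand) and Mrps11 (chr7:85933622-85935544, plus strand) span more than their 60 bases. The files give no exon or untranslated region for a probe.

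The median spot intensity was between 116 and 147 over the mice, against a background of 15.5 to 33.5, and between 53.0% and 66.3% of spots were well above background. Signal was uneven over the arrays. Among all tested probes in columns 1 to 14 of a band of 124 rows, centred between rows 203 and 204 and called the left edge here, the median difference between diets was 0.47 on the log2 scale, against 0.00 elsewhere. Next to it, columns 15 to 20 of the same rows had a median of 0.11. In columns 1 to 14 the medians were 0.33 in the 21 rows above the band and 0.31 in the 25 rows below it. The edge was marked out from these data, so that values inside and outside it are given as a description. All differences are low salt minus normal salt, in log2 intensity.

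Of the 104 member probes, 3 were higher on low salt in limma at an adjusted p under 0.05, a share of 2.88%, against 0.779% of all probes tested. They were Mrpl15, Mrpl46 and Mrps30. None was lower, against 0.0344% of all probes. At an unadjusted p under 0.05 there were 7 higher and 1 lower member probes, where all probes gave 6.73% and 4.33%. In whole tissue, fewer cells of a type and less RNA per cell cannot be told apart in such a value. The members called lay in or beside the left edge, where 16.7% of all probes were called higher. Outside it, 1 of 100 member probes was called, against 0.152% of all probes there.

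**Figure D1:**
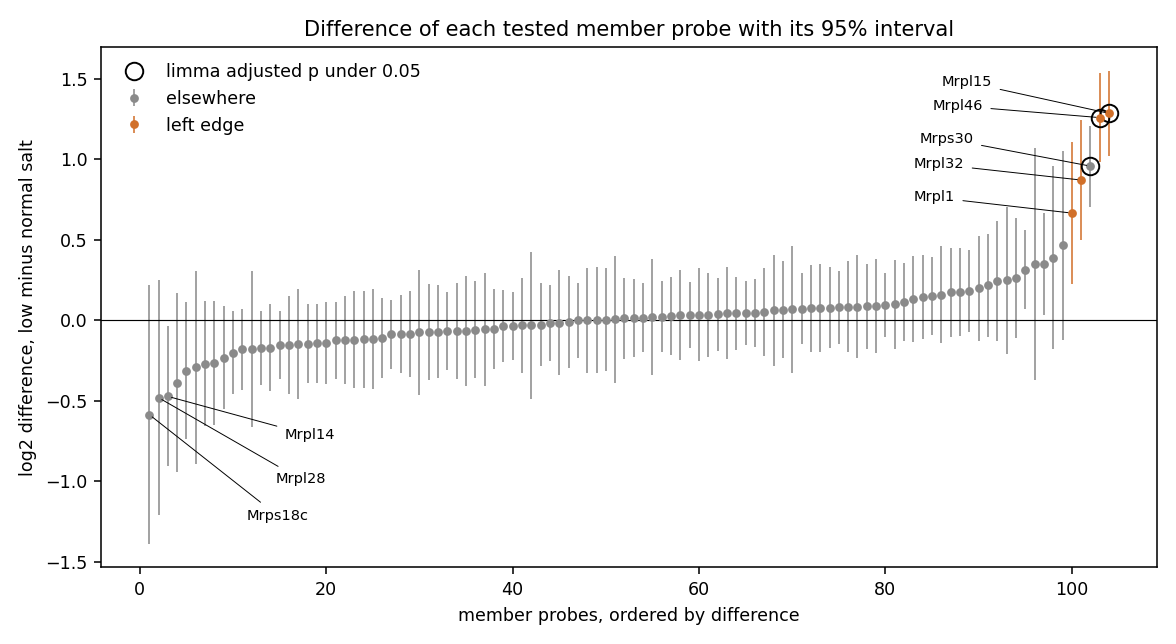
Log2 difference between low and normal salt for each of the 104 tested member probes, in order of size, with its 95% interval. Orange points are the 4 probes at the left edge of the array, grey points the other 100, and rings mark the 3 probes with a limma adjusted p under 0.05; the grey point among the orange ones is Mrps30.

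All 4 members inside the left edge were large subunit proteins and had higher signal on low salt, with a median difference of 1.06. Of all 882 tested probes there, 95% were higher on low salt. In 62% of the 872 with a value in every mouse, the low salt mice were all above the normal salt mice, as in these members. Mrpl15 descends from a bacterial protein of the large subunit. Its probe at row 209 and column 9 read 11.16, 11.12, 11.10 and 11.31 in normal salt mice 1 to 4, and 12.34, 12.52, 12.50 and 12.47 in low salt mice 1 to 4. The 2 groups stood far apart, and the mice of each diet lay close together. The difference was 1.28 ± 0.12 (SE, n = 4 in each group; limma adjusted p = 0.0026), a 2.43-fold higher signal.

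Mrpl46 is found only in mitochondria and belongs to the central protuberance, a ridge at the top of the large subunit. Its probe lay 5 rows from that of Mrpl15, at row 204 and column 8. It read 9.95, 9.84, 9.97 and 10.10 in the normal salt mice and 11.18, 11.27, 11.29 and 11.14 in the low salt mice. Again every low salt mouse was above every normal salt mouse by a wide margin. The difference was 1.26 ± 0.12 (limma adjusted p = 0.0032), or 2.39-fold.

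Mrpl32, a large subunit protein known to be trimmed by the m-AAA protease before it enters the ribosome, had its probe at row 151 and column 14, the last column of the edge. It read 10.387, 10.266, 10.562 and 10.489 on normal salt and 10.978, 11.197, 11.509 and 11.499 on low salt. The groups did not overlap, and low salt mice 3 and 4 were above mice 1 and 2. The difference of 0.87 ± 0.16 did not pass in limma (adjusted p = 0.059). With mouse number as a block it did (adjusted p = 0.027), where 1.21% of all probes were called higher. The labels state no pairing of mice across diets, and the number also carries the dye and the array.

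Mrpl1 forms the L1 stalk, a mobile arm beside the site where tRNA leaves. Its probe, at row 225 and column 14, read 9.28, 9.23, 9.14 and 9.32 in normal salt mice. Low salt mice 1 and 2 read 9.56 and 9.61, and mice 3 and 4 read 10.28 and 10.19. Each low salt mouse was above each normal salt mouse, but the arrays of the low salt diet stood 0.65 apart. The difference was 0.66 ± 0.19 (limma adjusted p = 0.24).

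Mrps30 carries a small subunit name, but its protein sits in the large subunit. It lay outside the edge by 7 rows, at row 135 and column 12, where nearby probes also had higher signal on low salt. The normal salt mice read 11.35, 11.31, 11.11 and 11.17, and the low salt mice 12.10, 12.15, 12.31 and 12.21. These groups also did not overlap. The difference was 0.96 ± 0.11 (limma adjusted p = 0.0094), a 1.94-fold higher signal, and its adjusted p was 0.058 when probes of the left edge were left out of the fit.

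**Figure D2:**
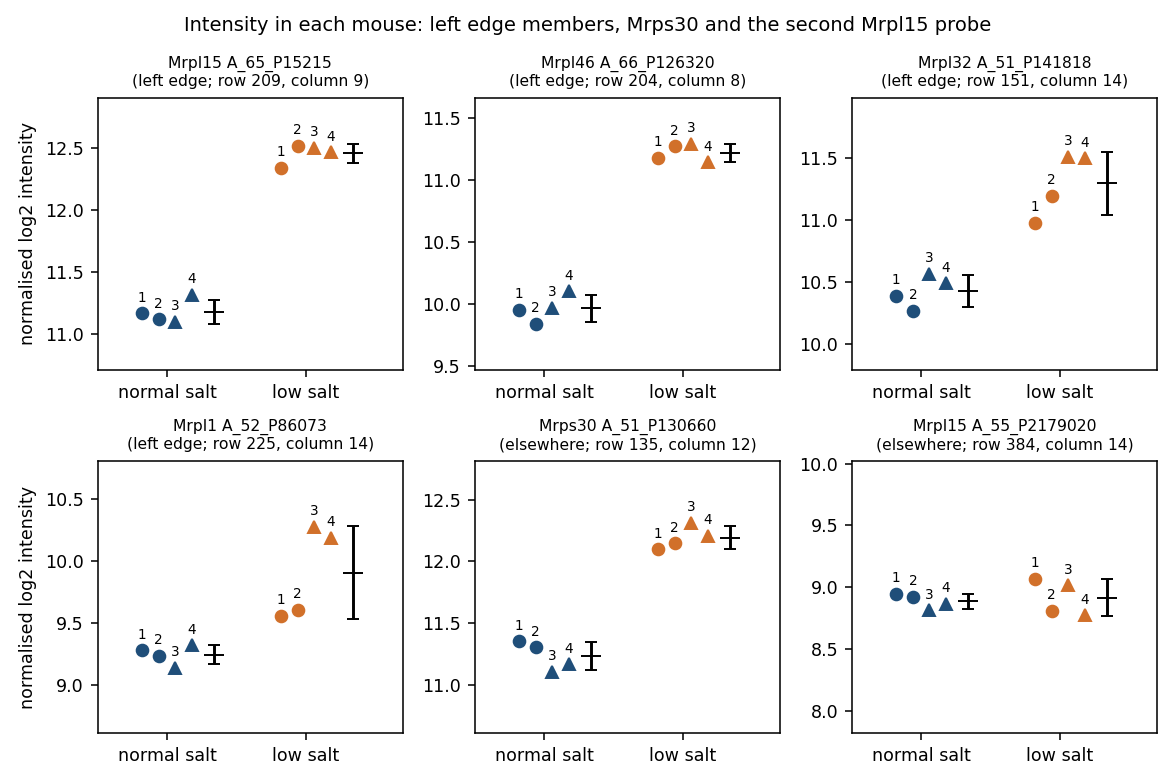
Normalised log2 intensity in each mouse for the 4 left edge members, Mrps30 and the Mrpl15 probe outside the edge, with blue for normal and orange for low salt. Numbers are mouse numbers, circles and triangles the arrays of mice 1 and 2 and of mice 3 and 4, and bars the mean ± SD of 4 mice; every panel spans the same range of log2 units. The groups are apart in the first 5 panels and overlap in the last.

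These values were set beside those of single-spot probes in columns 1 to 14 within 10 rows. Around Mrpl15 the median of 165 such probes was 0.48, and 97.6% of them read less than Mrpl15. Around Mrpl46 the median of 163 probes was 0.47, with 96.9% below it. Mrps30 was above 97.5% of 160 neighbours, whose median was 0.35. Mrpl32 was above 88.3% of 145 neighbours, and Mrpl1, in the middle of its surroundings, above 61.5% of 148.

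When a running median over neighbouring spots was subtracted (within 3 columns and 10 rows, a setting added after the data were seen), all 5 kept their sign and became smaller. Mrpl15 then read 0.74 (limma adjusted p = 0.044), Mrpl46 0.71 (0.084) and Mrps30 0.55 (0.10). Mrpl32 read 0.47 (0.19) and Mrpl1 0.23 (0.50). Mrpl15 was the only member past the threshold under this setting, where 0.176% of all probes were called higher. No member passed with the scanner software's own processed signal, where Mrpl15 read 1.02 and Mrpl46 1.03.

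Of the other members printed at 1 spot, those closest to the bounds were Mrpl9, 4 rows below the edge, with a difference of 0.35, and Mrps23, 11 columns to its right, with 0.08. Of those printed at several, Mrps35 had a spot at row 268 and column 9, and Mrpl34 one at row 231 and column 20 that read -0.01. Just inside were Mrpl32 and Mrpl1, both in the outermost column.

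**Figure D3:**
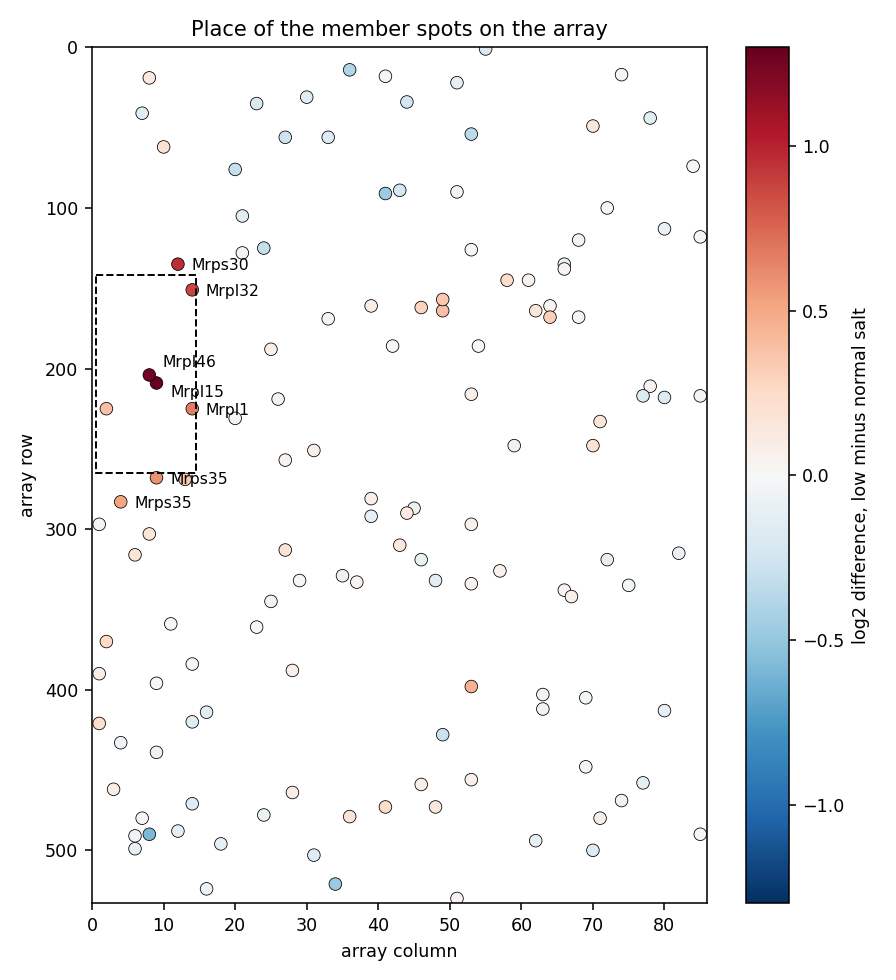
Array column and row of each of the 133 member spots, coloured by the log2 difference between low and normal salt at that spot. The dashed box is the left edge (columns 1 to 14 of a band of 124 rows); the darkest red spots, of Mrpl15, Mrpl46, Mrps30 and Mrpl32, lie in it or just above it, and those of Mrps35 just below it also read over 0.5.

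For genes with a second probe, and probes printed at several places, a member's values at different places were set side by side. The second Mrpl15 probe, at row 384 and column 14, read 8.95, 8.92, 8.81 and 8.86 on normal salt and 9.07, 8.81, 9.02 and 8.77 on low salt. These values overlapped, and the difference was 0.03 ± 0.12, with a 95% interval from -0.25 to 0.31 that leaves out the value of the probe at the edge. The 2 probes of Mrpl15 do not share a sequence, and whether they read the same transcripts was not tested. Mrpl46, Mrpl32, Mrpl1 and Mrps30 each had 1 probe.

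Mrps35, a protein of the small subunit head, had the same probe at 10 places. At row 283 and column 4 it read 11.94, 11.92, 11.81 and 11.93 on normal salt and 12.39, 12.50, 12.41 and 12.36 on low salt, a difference of 0.52. At row 268 and column 9 the difference was 0.58. Both spots lie just below the left edge, and at each the low salt mice stood above the normal salt mice. At the other 8 places the differences ran from -0.35 to 0.07, with a median of -0.08. Averaged over its unflagged spots in each mouse, Mrps35 read 0.09 (limma adjusted p = 0.71), while the median over its 10 spots was -0.06. At row 22 and column 51, low salt mice 1 and 2 (10.97 and 11.02) were flagged and left out. With them kept, the difference at that spot was -0.58 in place of -0.12.

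Mrpl50, a large subunit protein found only in mitochondria, also had 10 spots of 1 probe, of which 1 lay inside the edge, at row 225 and column 2. Here the scanner software had set an outlier flag in 3 of the 4 normal salt mice, so that only mouse 1 (11.52) entered the fit. With the flagged readings kept, mice 2, 3 and 4 read 11.64, 10.75 and 10.72, and the low salt mice read 11.91, 11.99, 11.90 and 11.81. Low salt was above normal salt at this spot, by 0.39 without and 0.75 with the flagged readings. With flagged readings left out, the other 9 spots gave differences from -0.16 to 0.16, and the probe as a whole read -0.04 ± 0.10. At row 128 and column 21, low salt mice 1 and 2 (10.74 and 10.79) were flagged. The difference at that spot was -0.60 with them kept, in place of -0.04. A second Mrpl50 probe, at row 17 and column 74, read 0.03 ± 0.11.

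Mrpl34, a small basic protein of the large subunit, had 10 spots, none at the edge, with differences from -0.31 to 0.29 and a median of 0.00. Its extremes came from single arrays. At row 162 and column 46 normal salt mice 1 and 2 read 12.26 and 12.22, while mice 3 and 4 read 13.22 and 13.36. At row 125 and column 24 low salt mice 1 and 2 read 12.43 and 12.22, and mice 3 and 4 read 13.32 and 13.16. The same bases thus gave readings about 1 log2 unit apart between arrays of a diet at some places and not at others.

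**Figure D4:**
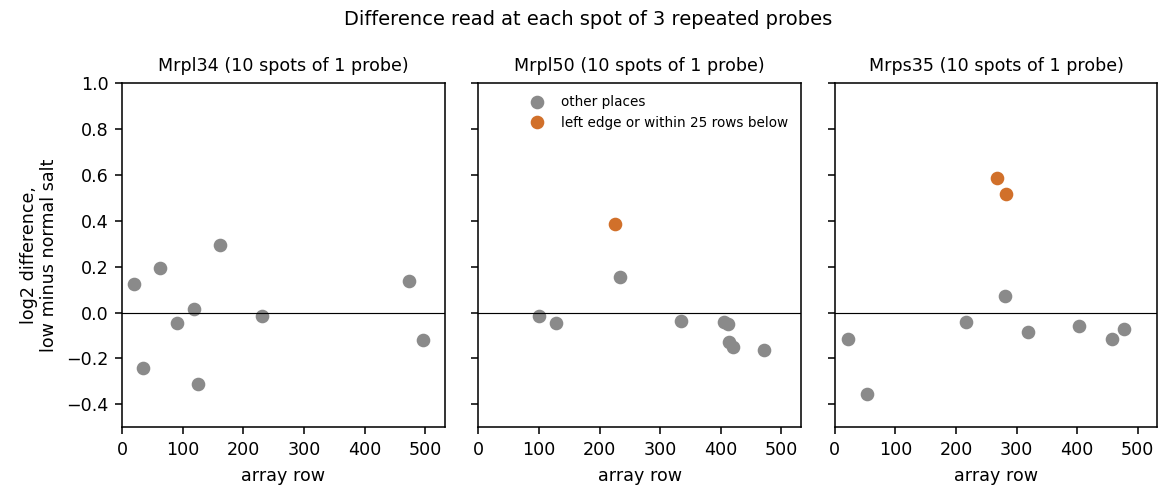
Log2 difference between low and normal salt at each spot of the probes of Mrpl34, Mrpl50 and Mrps35, against the array row of the spot. Orange points are spots in columns 1 to 14 at the left edge or within 25 rows below it, grey points the others; the orange spots of Mrps35 read 0.58 and 0.52 and that of Mrpl50 0.39, above all grey spots of the same probe.

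Away from the left edge the 100 tested member probes, of 73 genes, had a median difference of 0.00, with 52 above 0, beside 0.00 and 50.5% above 0 over all probes there. Their middle 50% lay between -0.11 and 0.08. For 79 of the 100 the 95% interval lay within -0.5 to 0.5, against 60.6% of all probes elsewhere, and for 95 it lay within -1 to 1, against 93.5%. The 4 low salt mice were all above the 4 normal salt mice in 4 of the 95 member probes elsewhere with a value in every mouse, Mrps30, Mrpl9, Mrpl4 and Mrps35, against 5.62% of all probes elsewhere. They were all below in 1, Mrps31, against 5.05%. A second Mrpl4 probe read -0.145. The Mrps35 value left out flagged low readings of some low salt mice and took in the spots just below the left edge. None of the median shifts by role below was tested.

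By role, the large subunit proteins listed at the tunnel exit, a list that does not hold Mrpl47, had a median of 0.04 over 10 probes. Those of the stalk, which recruits translation factors, had -0.09 over 6 probes. The central protuberance without Mrpl46 had -0.02 over 8 probes, and the remaining large subunit proteins elsewhere 0.00 over 37. The small subunit head had 0.04 over 11 probes and the body -0.02 over 26. Proteins with a bacterial counterpart had a median of 0.01 over 52 probes elsewhere, and those found only in mitochondria -0.01 over 46.

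The members linked to cardiomyopathy showed little difference. Mrpl3 read 0.02 ± 0.10, with a 95% interval from -0.20 to 0.24, and its 8 mice lay between 12.96 and 13.14. Mrpl44 read 0.03 ± 0.11, from -0.23 to 0.29. Mrps22 read -0.01 ± 0.12, from -0.30 to 0.27. None of these passed in limma (adjusted p from 0.93 to 0.98).

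Mrpl21, Mrpl22, Mrpl9 and Mrpl23 had the largest positive differences outside the edge without passing. Mrpl22, which lines the tunnel exit, read 12.27, 12.26, 13.11 and 13.22 on normal salt and 13.23, 13.16, 13.09 and 12.93 on low salt. Mrpl23, also at the tunnel exit, read 13.17, 12.98, 14.39 and 14.24 on normal salt and 14.17, 13.96, 14.06 and 13.98 on low salt. In both, normal salt mice 1 and 2 were about 1 unit below the other 6 mice, which overlapped.

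The differences were 0.39 ± 0.25 for Mrpl22 (limma adjusted p = 0.58) and 0.35 ± 0.32 for Mrpl23 (0.70), with spots 7 rows apart in column 49. Each had a second probe with a negative value, -0.16 ± 0.13 for Mrpl22 and -0.15 ± 0.14 for Mrpl23, the latter with the flagged spots of low salt mice 1 and 2 left out. Mrpl21, at row 398 and column 53, had the same form, with 12.10 and 12.28 in normal salt mice 1 and 2 and values from 12.99 to 13.18 in the other mice (difference 0.46 ± 0.26, adjusted p = 0.53). Mrpl24, a further tunnel exit protein, read 0.25 ± 0.20, and normal salt mice 1 and 2 were 0.63 below mice 3 and 4. With normal salt mice 1 and 2 and so their array left out, Mrpl22 read -0.06, Mrpl23 -0.27 and Mrpl24 -0.07.

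With normal salt mice 3 and 4 left out, Mrpl21 (0.93, limma adjusted p = 0.045), Mrpl22 (0.84, 0.045) and Mrpl23 (0.96, 0.020) passed, where 0.909% of all probes were called higher. The normal salt group then rested on a single array, so that diet and array coincide. Leaving out low salt mice 1 and 2 likewise made Mrpl1 (0.99, 0.042) and Mrpl32 (1.08, 0.036) pass, beside 0.405% of all probes.

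Mrps10 of the small subunit head had a positive difference with a narrow interval. It read 12.19, 11.92, 12.22 and 12.01 on normal salt and 12.63, 12.43, 12.37 and 12.17 on low salt. Within each dye, the low salt mice were above the normal salt mice. The difference was 0.31 ± 0.11 (limma adjusted p = 0.33). With low salt mice 3 and 4 left out it passed (0.44, adjusted p = 0.046), beside 2.47% of all probes. The low salt group then rested on a single array, so that diet and array coincide.

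Mrpl9, at 0.35 ± 0.14 (adjusted p = 0.41), lay just below the edge. Its low salt mice, from 11.92 to 11.98, were above normal salt mice that ranged from 11.30 to 11.81. Mrpl11, at the base of the stalk, read 0.26 ± 0.16, and stood at -0.01 with normal salt mice 3 and 4 left out. The other stalk proteins Mrpl10 and Mrpl12 read -0.13 ± 0.10 and -0.20 ± 0.11, with a second Mrpl10 probe at 0.00.

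The largest negative differences also came from single arrays. Mrps18c, of the small subunit body, read 12.43, 12.33, 12.15 and 12.26 on normal salt and 12.45, 12.23, 10.92 and 11.22 on low salt. Low salt mice 1 and 2 lay among the normal salt mice, and mice 3 and 4 well below them all. The difference was -0.59 ± 0.35 (limma adjusted p = 0.56). It was -1.22 (adjusted p = 0.050) with low salt mice 1 and 2 left out, where 0.056% of all probes were called lower, and 0.05 with mice 3 and 4 left out.

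Mrpl14, which lies at the face between the subunits, read 15.48, 15.20, 15.19 and 14.94 on normal salt. Low salt mice 1 and 2 read 14.53 and 14.28, and mice 3 and 4 read 15.16 and 14.94. Only the array of low salt mice 1 and 2 stood clearly below the normal salt mice. The difference was -0.47 ± 0.19 (limma adjusted p = 0.42).

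Mrps12, of the decoding centre where codons are read, had 12.58 and 12.31 in low salt mice 1 and 2 and 13.21 and 12.94 in mice 3 and 4. Its normal salt mice, from 12.90 to 13.17, lay beside the latter, and the difference was -0.31 ± 0.19. Mrpl28 (-0.48 ± 0.32), Mrps9 (-0.39 ± 0.24) and Mrpl19 (-0.27 ± 0.17) were likewise low in low salt mice 1 and 2 alone. Mrpl42, at -0.29 ± 0.26, was low in low salt mice 3 and 4 alone, at 12.38 each. None of these passed in limma, with adjusted p values from 0.55 to 0.69.

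With low salt mice 3 and 4 left out, Mrpl14 (-0.79, adjusted p = 0.030), Mrps12 (-0.63, 0.036) and Mrpl19 (-0.55, 0.029) passed, beside 3.55% of all probes called lower. The low salt group then rested on the array with the low readings. Arrays of normal salt stood at least 0.5 apart in 8 of the 104 member probes and arrays of low salt in 8, against 7.92% and 8.23% of all probes.

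Of the 76 genes, 25 had more than 1 tested probe. The gap between the lowest and the highest difference of such a gene had a median of 0.09, and it was under 0.2 in 17 genes. In 10 the probes had opposite signs. Besides Mrpl15, with a gap of 1.25, the gap was largest for Mrpl22, whose other probe read -0.16, and Mrpl23, whose other probe read -0.15.

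Mrpl47, a large subunit protein with 4 tested probes, had differences of -0.27, -0.07, -0.06 and 0.22. The lowest came from a spot at row 1, where low salt mouse 2 was flagged, and mouse 1, at 11.068, lay below the other mice at 11.501 to 11.670. The value of -0.06, from a spot at row 219, left out normal salt mice 3 and 4 (13.91 and 11.68), which were flagged. With them kept, the difference at that spot was -1.88. Mrps23 had 0.08 and 0.24, and Mrps26, with the closest pair, -0.12 at both.

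**Figure D5:**
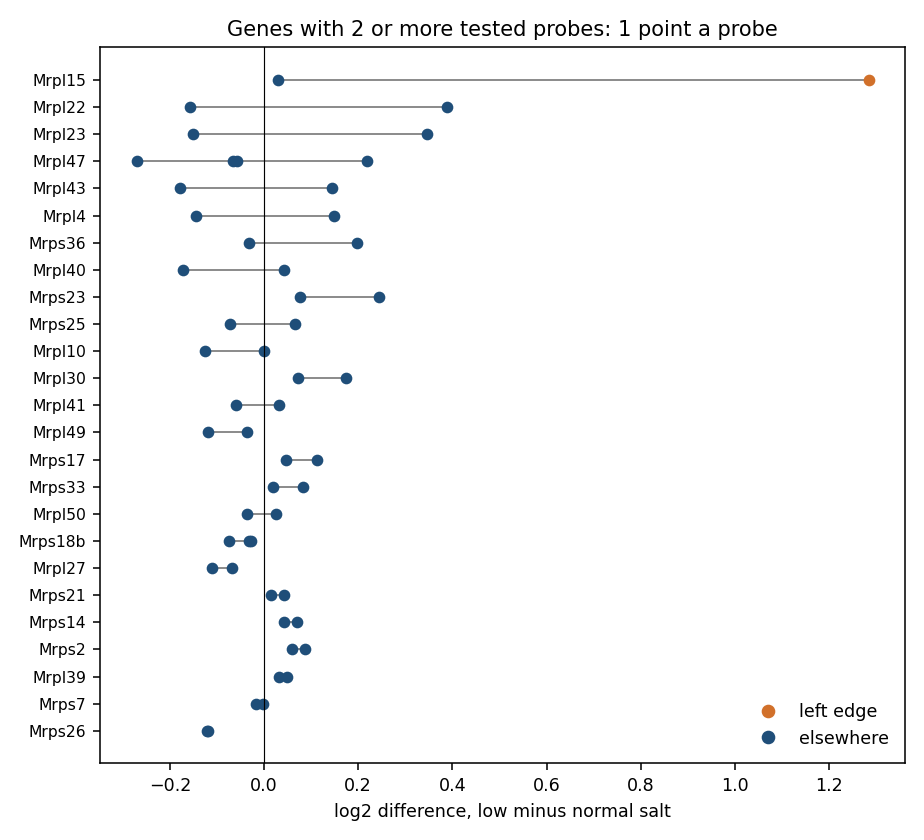
Log2 difference between low and normal salt for each tested probe of the 25 genes with more than 1, ordered by the gap between their probes. The only gene with a probe wholly at the left edge (orange) is Mrpl15, at the top, with a gap of 1.25; the next gap is 0.54, for Mrpl22.

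Members at the bright and at the dim end of the array's scale showed no call either. Mrpl51 read between 15.33 and 15.57 in the 8 mice, with a difference of 0.01 ± 0.11, and Mrpl33 between 14.59 and 15.17, with -0.18 ± 0.11. Dim probes of Mrps25, Mrpl41 and Mrps14, with means from 6.999 to 7.353, read 0.07 ± 0.17, -0.06 ± 0.13 and 0.04 ± 0.13. The second probes of these 3 genes also did not pass. An intensity depends on the probe's own sequence and is not a transcript level to be set against that of another gene. Mrps36, named as a ribosomal protein but known as a part of the 2-oxoglutarate dehydrogenase complex, had probes at -0.03 and 0.20.

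Mrpl46 and Mrps11, a protein of the small subunit body, start head to head on chromosome 7, 41 bases apart in GRCm38.p6. The region between and around their starts, chr7:78783060-78783160 on the plus strand from RefSeq, holds 30 bases of each gene at its ends. It is shown because Mrpl46 was called and Mrps11 was not. Capitals mark the letters GGGCGGG, read by the factor Sp1.
Mrpl46 and Mrps11: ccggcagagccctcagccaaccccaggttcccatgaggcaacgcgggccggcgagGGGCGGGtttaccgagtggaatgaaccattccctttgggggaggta

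Mrps11, whose probe lies at row 524 and column 16, read 9.93, 9.99, 9.61 and 9.50 on normal salt and 9.65, 9.94, 9.57 and 9.57 on low salt. The groups overlapped, and the difference was -0.08 ± 0.17 (limma adjusted p = 0.89), with a 95% interval from -0.46 to 0.31. The interval of Mrpl46, from 0.98 to 1.53, lies apart from it. The Mrpl46 probe, however, lies at the left edge, at row 204 and column 8, where its neighbours had a median of 0.47. It did not pass with the tighter trend subtracted or with the scanner's processed signal. The part of place in this contrast was not tested.

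Promoters from 250 bases before to 50 after the start were given for 67 member genes and 27025 genes in all. GCGCATGC, the core of the motif of NRF1, a factor known for nuclear genes of mitochondria, stood on either strand in 8 member promoters (11.9%) and in 3.05% of all. CCGGAAGT, read by ETS factors such as GABP, stood in 12 (17.9%, against 4.31%), and AAGATGGC, read by YY1, in 12 (17.9%, against 3.19%). GGGCGGG stood in 28 (41.8%, against 27.9%). A match gives letters and not a site of binding, and these arrays did not measure binding.

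Genes that work with the mitochondrial ribosome were taken from 5 lists, and 0 of their probes passed in limma in either direction. The 7 other ribosomal subunits, such as Dap3 and Chchd1, had a median of 0.06 over 10 probes, with 1 probe at an unadjusted p under 0.05. It was that of Mrp63, which read 0.27 ± 0.11 (adjusted p = 0.44), and Aurkaip1 read 0.20 ± 0.12 and 0.13 ± 0.15 at its 2 probes. Translation factors had a median of 0.03 over 21 probes of 15 genes. Among them Slirp, which stabilises mitochondrial messenger RNA, read 0.73 ± 0.22 (adjusted p = 0.26) from a spot inside the left edge, and Mtrf1l, a release factor, -0.49 ± 0.22 (0.46).

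Assembly and RNA-modifying factors had a median of 0.05 over 29 probes of 25 genes. Mtg1, a GTPase of large subunit assembly, read 0.47 ± 0.17 (adjusted p = 0.36), with normal salt mice 1 and 2 at 10.24 and 10.25 and mice 3 and 4 at 10.79 and 10.80. Clpp, a protease that takes part in assembly, read 0.21 ± 0.11. The mitochondrial aminoacyl-tRNA synthetases, which load tRNAs with amino acids, had a median of 0.00 over 21 probes of 16 genes. Vars2 read 0.49 ± 0.14 (0.22) at row 127 and column 1, just above the left edge, and 0.18 with the tighter trend subtracted. Its second probe, at row 134 and column 51, read -0.07 ± 0.25.

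Hars2 read -2.29 ± 1.08 (0.48), with 14.15 and 13.31 in normal salt mice 1 and 2 and 9.10 to 9.51 in the other 6, so that 1 array carried its difference. Mitochondrial transcription had a median of -0.02 over 7 probes of 5 genes. Tfam, which packs the mitochondrial genome and starts its transcription, read -0.37 ± 0.22, -0.27 ± 0.20 and -0.10 ± 0.13 at its 3 probes. At an unadjusted p under 0.05, these lists held 1, 1, 1 and 0 probes, all higher, where all probes gave 6.73% higher.

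The tissue label was checked with cell markers. All 9 cardiomyocyte markers were above background in all 8 mice, with a median difference of -0.16 over 11 probes, and none passed. At an unadjusted p under 0.05, 3 of these probes were lower (Myh6 at -0.60, Actc1 at -0.38 and Tnni3 at -0.26), where all probes gave 4.33% lower, and a second Myh6 probe read 0.02. Nuclear genes that stand for mitochondrial content, such as Cs and Vdac1, had a median of -0.01 over 8 probes, and none passed. All 4 atrial markers were also detected, and Myl4 ranged from 12.38 to 15.47 on normal salt and from 11.01 to 13.98 on low salt, where groups overlapped. The atrial markers had a median difference of -1.52, the largest in size of the marker lists, and none passed. Sln read -2.16 ± 1.23, Myl4 -1.97 ± 0.99, Myl7 -1.07 ± 0.84 and Nppa 0.39 ± 0.48. The Myl7 probe lay inside the left edge and read -1.54 with the tighter trend subtracted. Median differences were 0.32 for macrophage and -0.25 for endothelial markers, and 0 of their probes passed. At an unadjusted p under 0.05, 3 of 10 macrophage probes were higher, beside 6.73% of all probes, and 2 of 7 endothelial probes lower, beside 4.33%. These 3 macrophage probes were all of Cx3cr1, and no probe of Adgre1, Cd68 or Csf1r reached that level. A Cx3cr1 probe inside the left edge read 0.66, or 0.17 with the tighter trend subtracted. The other Cx3cr1 probes lay outside the edge and read 0.95 and 0.88 with that trend subtracted. Median differences were -0.10 for fibroblast, -0.23 for smooth muscle and -0.22 for blood markers, with 0 past the threshold. Of the blood markers, Hbb-b1 lay inside the left edge and read 0.41, or 0.01 with the tighter trend subtracted. For adipocyte and skeletal muscle, 1 of 3 and 2 of 4 markers were measured, with 0 past the threshold. The part of these cell types in any member's value was not tested.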

How the data were processed

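Agilent 2-colour arrays were read for 8 mice, and each mouse was taken from the channel of its dye. The scanner tables hold spot and local background intensity per channel, per the file headers (Agilent Feature Extraction 11.5.1.1, protocol GE2_1105_Oct12, mm9 design). The deposited value table was not used here. Mean signal and background median were corrected by normexp (offset 50), with the channel's median background where the local background was flagged, then normalised by loess within arrays and Aquantile between them (limma 3.58.1, R 4.3.3, statmod 1.5.0). Flagged spots were left out, and a probe's spots were averaged. The model had diet and dye as fixed effects and arrays as random blocks (correlation 0.553). It was fitted to probes well above background in 4 or more mice, with Benjamini-Hochberg adjustment over 23236 probes, a threshold of 0.05 and 2-sided tests. The fit and the local trend were tested on simulated data. The number of arrays limits the precision.

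Members, lists and the left edge were chosen with earlier results of these data known. Named were the probes called, those at the edge or nearest its bounds, the 8 largest rises and falls elsewhere, the 3 brightest and dimmest, genes with probes on both sides, and 2 genes by p in each list. Mrpl34, Mrps35, Mrps11, Mrpl3, Mrpl44, Mrps22, Mrpl4, Mrps31, Mrpl10, Mrpl12, Mrps26 and Mrps36 were added after their values were seen. The core of the NRF1 motif was searched in place of a longer form whose counts had been seen. Accessions of 98 of the 106 member probes matched the RefSeq gene table (GRCm38.p6), all 98 with the same symbol. Mice with the same number in the labels deviated together (correlations 0.31, 0.14, 0.16 and 0.20), and the number also carries the dye, so it was fitted as a block. Alternatives changed the background correction, normalisation, filter, trend, blocks, dyes, mice and arrays.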

Additional observations from a re-analysis of the deposited data

Results flagged for a closer look

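Within the groups of 4 mice of the named member probes, 57 in all, the most distant mouse was set against the range of its group. For Mrpl28 normal salt mouse 2 read 11.80 and the nearest other mouse 12.17, a gap of 0.890 of the range. For the second Mrpl50 probe normal salt mouse 4 read 9.24 and the nearest 9.06, a gap of 0.959 of the range. Both pass Dixon's 95% limit for 4 samples, which chance passes in about 1 of 20 groups.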

How the results depend on the processing

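The median of members away from the left edge stayed within the spread between mice in all 30 settings run. The median at the left edge, 1.06, became 0.91 with the scanner's processed signal, 0.81 with the local trend subtracted, 0.59 with the tighter trend, 0.87 with the mean over the probes of a gene, and 0.91 and 1.27 with a wider and a narrower edge. The count of members past the threshold, 3, became 0 with the scanner's processed signal, without normalisation between arrays, without left edge probes, with arrays averaged and with Cy3 or Cy5 samples alone, where limma gave 6, 4, 4, 5, 6 and 5 at an unadjusted p under 0.05. Over all tested probes, 0 passed without normalisation between arrays, with arrays averaged and with Cy3 or Cy5 samples alone. The scanner's signal gave 41 higher and 5 lower over all probes, and leaving out left edge probes 3 and 1. The member count became 1 with the tighter trend, beside 41 higher and 24 lower over all probes. It became 6, 6 and 7 without the arrays of normal salt mice 3 and 4, low salt mice 1 and 2 and low salt mice 3 and 4. There all probes gave 211, 94 and 572 higher and 71, 13 and 824 lower. The cause was not tested; those without arrays, with arrays averaged or with 1 dye rest on fewer samples. Leaving out 1 mouse at a time gave counts of 3 to 4, medians of 1.02 to 1.12 at the edge and -0.02 to 0.03 elsewhere, and Mrpl32 passed without low salt mouse 1 (adjusted p = 0.045). With mouse number as a replicate block the count was 4, Mrpl32 was added and no other member call changed. Mrpl32 also passed without the array block (0.017). Mrps30 passed in 21 of 28 settings, Mrpl15 in 21 of 26 and Mrpl46 in 21 of 27, with no change of sign.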
